A study of Mus musculus with 14 samples.

Results

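The 10 genes described here belong to gluconeogenesis, the pathway by which the liver makes glucose, and to the response of liver to glucagon: Gcgr, Creb3l3, Foxo1, Pcx, Pck1, Fbp1, G6pc, Gpt, Tat and Sds. They were taken as every probe set whose platform annotation gives one of these symbols and no other. This gave 17 of 22690 probe sets, for 9 of the 10 genes out of 12394 genes named on the array, and no probe set carried the symbol Sds, so that gene was not analysed here. Of the 17 probe sets, 11 had a mean high enough for testing, 4 were Affymetrix control sets for Pcx, and 2 (1 each for Pck1 and Foxo1) had very low means. All 9 genes kept at least 1 tested probe set, and each is represented below by its tested probe set of highest mean.

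Glucagon, the hormone of fasting, binds the receptor encoded by Gcgr on hepatocytes and raises cyclic AMP, which activates protein kinase A and, through the factor CREB, genes such as Pck1 and G6pc. Insulin opposes this, in part by removing FOXO1 from the nucleus. Carbon reaches the pathway from lactate and from amino acids, whose breakdown yields pyruvate and other precursors, and JNK1, the stress-activated kinase encoded by Mapk8, is known for its part in the insulin resistance of obesity.

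The series compared liver of C57BL/6J mice with diet-induced obesity (DIO) in 3 groups: 5 samples given adenovirus (Adv) that expresses a short hairpin RNA (shRNA) to Jnk1, 4 given adenovirus that expresses an shRNA to GFP, a jellyfish protein that mice lack, and 5 given vehicle. Such a hairpin is processed by the cell into a guide that lowers the matching messenger RNA. Obesity by diet is thus common to all 3 groups, and the vehicle group alone received no virus. The labels give no viral dose, time after treatment, hairpin sequence or feeding state, and they do not say that each sample is a separate mouse, so the p-values cover the spread among the samples, which may be technical. Values are log2 array intensities after quantile normalization, 1 array per sample, and a gene was called changed at a limma adjusted p under 0.05 over all tested probe sets.

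On the strongest Mapk8 probe set, the Jnk1 shRNA group had 40.2% of the GFP shRNA level (limma adjusted p = 3.5e-07). Another tested Mapk8 probe set gave 46.0% of the GFP level (limma adjusted p = 0.000819). The remaining one gave 92.1% and was not called (limma adjusted p = 0.561). The 8 tested hepatocyte markers, albumin among them, lay at or above the 97.26th percentile of all probe sets. The Jnk1 arrays differed in quality measures: their bacterial spike-in controls averaged 8.36 ± 0.32 on the log2 scale, against 8.91 ± 0.08 on GFP arrays and 8.91 ± 0.10 on vehicle arrays (SD, n = 5, 4 and 5). The exact two-sided permutation p was 0.0159 against GFP and 0.00794 against vehicle, and 0.0636 for both after Benjamini-Hochberg adjustment over 12 such tests. With 252 regroupings, 0.00794 is the smallest value this test against vehicle can give, so the adjusted value is limited by the number of arrays. The 3′ to 5′ intensity ratio of Gapdh, a sign of RNA quality, was 0.735 ± 0.021 with Jnk1 shRNA, against 0.686 ± 0.020 with GFP shRNA (exact permutation p = 0.0159, adjusted 0.0636) and 0.702 ± 0.031 with vehicle (exact permutation p = 0.0873, adjusted 0.262). The deposited intensity of the 5′ probe set for 18S ribosomal RNA was 52.0 to 701.7 on Jnk1 arrays 1, 3, 4 and 5 and 1976 on Jnk1 array 2, against 1052 to 1567 on GFP arrays and 851.1 to 1324 on vehicle arrays. All Jnk1 arrays lay below every GFP and vehicle array in spike-in level. Jnk1 array 2 came nearest to the other groups, at 8.76 beside 8.77 on vehicle array 3, and Jnk1 array 1 was the lowest, at 7.89. A spike-in covariate is thus largely shared with the Jnk1 group. Differences fitted with it lean on the slope within groups and cannot cleanly separate the level from the group. The brightest probe set of an array reached 4332 to 5522 on the Jnk1 arrays as deposited, against 6528 to 8293 on GFP arrays and 6105 to 8401 on vehicle arrays. GFP array 2 had the highest median intensity, 58.3, and the lowest mean correlation with its own group, 0.942. Their part in the results below was not tested, beyond the values given with the spike-in level in the model, with Jnk1 array 2 as the only Jnk1 array, and without single arrays.

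In Jnk1 shRNA liver against GFP shRNA liver, Gcgr, Creb3l3, Gpt and Pcx fell, and G6pc and Fbp1 rose. That is 6 of 9 genes called, where 34.1% of all tested genes were called, 2 of them higher (17.7% of all genes) and 4 lower (16.5%). Against vehicle, 7 of 9 were called, where 38.6% of all genes were: Gcgr, Tat, Gpt, Pck1, Creb3l3 and Pcx were lower (19.3% of all genes) and Fbp1 was higher (19.3%). In GFP shRNA liver against vehicle only Tat was called, lower, where 2.80% of all genes were called, 2.18% higher and 0.623% lower. The median difference of the 9 genes was -0.23, -0.47 and -0.36 in these comparisons, beside -0.02 over all genes in each. The 3 comparisons share arrays pairwise, so their values are given side by side and not as independent results. The plot of all 9 genes by array shows these levels, and the plot of fold changes their intervals.

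**Figure D1:**
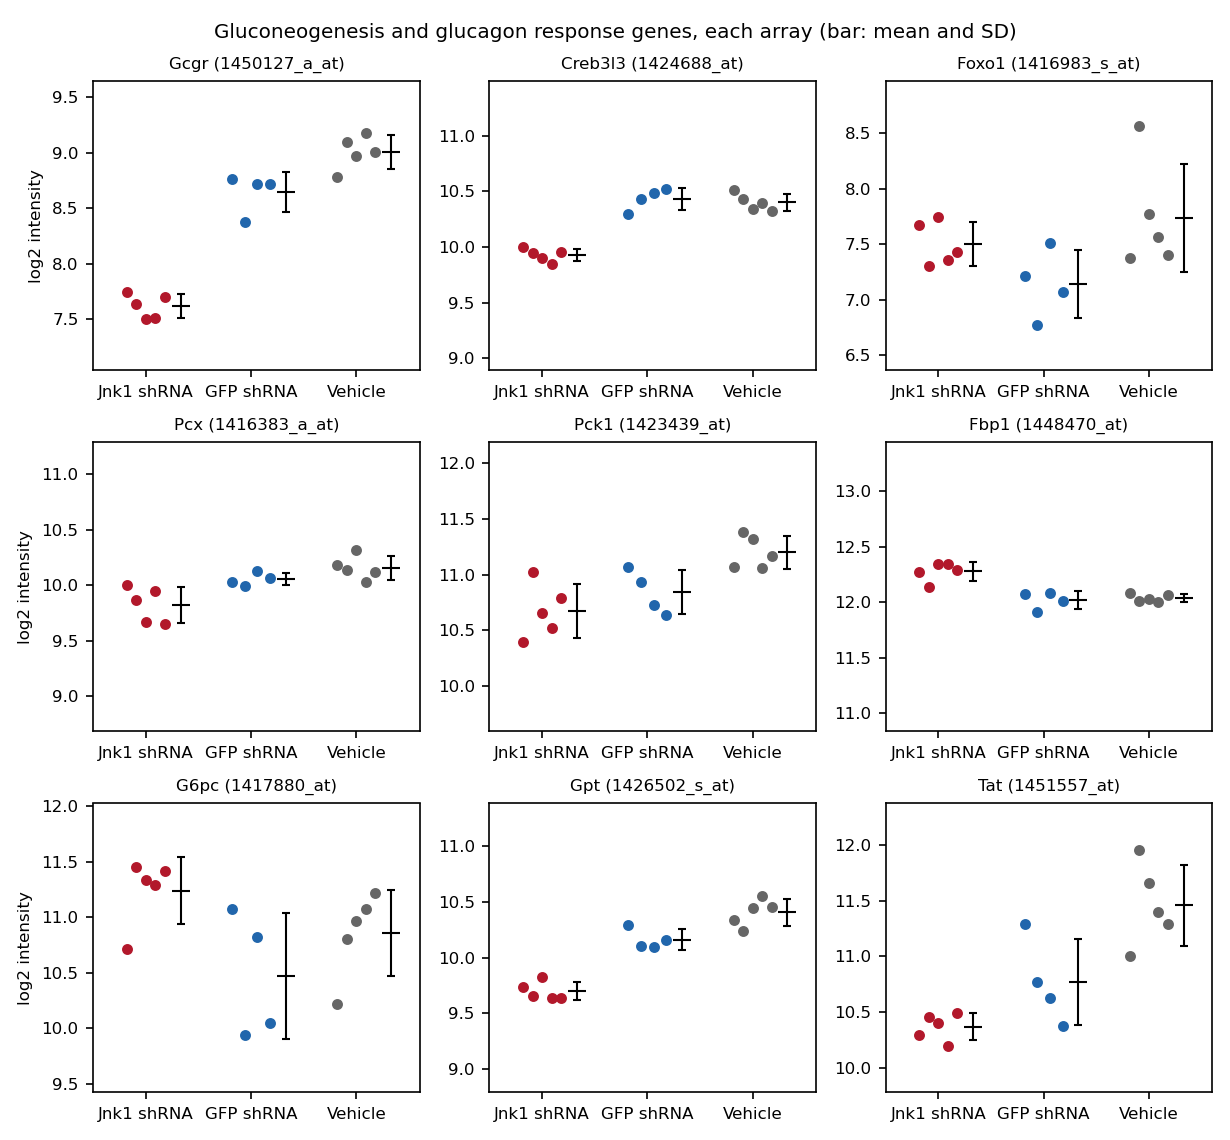
Log2 intensity of the 9 measured genes on each array, 1 panel per gene, with Jnk1 shRNA (n = 5), GFP shRNA (n = 4) and vehicle (n = 5) from left to right. Points are arrays, the bar is the mean with its SD, and every panel spans the same range of the log2 scale. The 5 Jnk1 points lie below all others for Gcgr, Creb3l3 and Gpt, and above all others for Fbp1. How many of all tested genes separate the arrays in this way was not counted. Such separations, here and in the text, therefore have no background beside them.

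Gcgr, which encodes the glucagon receptor, fell furthest of the 9 genes. Its log2 intensity was 7.74, 7.64, 7.50, 7.52 and 7.70 on the Jnk1 shRNA arrays, 8.76, 8.38, 8.72 and 8.72 on the GFP shRNA arrays, and 8.78, 9.09, 8.97, 9.18 and 9.002 on the vehicle arrays. Every Jnk1 array was lower than every other array, and every GFP array was lower than every vehicle array. The Jnk1 level was 49.1% of the GFP level (log2 difference -1.03 ± 0.10 SE, limma adjusted p = 1.57e-06) and 38.3% of the vehicle level (-1.39 ± 0.09, limma adjusted p = 1.94e-08). The GFP group differed from vehicle by -0.36 ± 0.10, which did not pass (limma adjusted p = 0.0753). Both calls of the Jnk1 group held in all 25 alternative settings, and with Jnk1 array 2 as the only Jnk1 array the differences were -1.004 and -1.36. In bulk liver, fewer cells of a type and less RNA per cell cannot be told apart.

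Creb3l3 encodes a membrane-bound transcription factor of liver and intestine that is released by cleavage and acts on genes of fasting, acute phase proteins and triglyceride metabolism. It measured 10.0004, 9.94, 9.90, 9.85 and 9.95 with Jnk1 shRNA, 10.30, 10.43, 10.49 and 10.52 with GFP shRNA, and 10.51, 10.43, 10.35, 10.40 and 10.32 with vehicle. The Jnk1 arrays lay below all others and the other 2 groups overlapped. The fall was to 70.4% of GFP (-0.51 ± 0.06 SE, limma adjusted p = 1.26e-05) and 72.0% of vehicle (-0.47 ± 0.06, limma adjusted p = 8.24e-06). GFP and vehicle differed by 0.03 ± 0.06 (95% interval -0.10 to 0.16), with limma adjusted p = 0.858. These 2 calls also held in all 25 settings and with Jnk1 array 2 alone (-0.49 and -0.46).

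The RefSeq table holds 2 start sites of Creb3l3. Both promoter windows are shown (250 bases before to 50 bases after the start, assembly GRCm38.p6, 5′ to 3′ on the gene's minus strand). Capitals mark matches, on either strand, to the half-site of the cyclic AMP response element (TGACG), the full element (TGACGTCA), a FOXO site (GTAAACA) and a glucocorticoid half-site (TGTTCT). The first window, chr10:81092542-81092841, holds TGACG from position -239 to -235 counted from the start. The second, chr10:81098823-81099122, holds TGTTCT on its opposite strand at -231 to -226 and at -30 to -25.
Creb3l3, first start: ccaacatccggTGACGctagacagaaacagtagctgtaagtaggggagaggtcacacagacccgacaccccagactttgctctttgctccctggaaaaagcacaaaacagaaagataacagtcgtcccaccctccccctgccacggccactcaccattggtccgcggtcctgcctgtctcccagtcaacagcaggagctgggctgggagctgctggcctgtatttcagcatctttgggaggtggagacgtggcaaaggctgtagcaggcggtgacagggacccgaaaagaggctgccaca
Creb3l3, second start: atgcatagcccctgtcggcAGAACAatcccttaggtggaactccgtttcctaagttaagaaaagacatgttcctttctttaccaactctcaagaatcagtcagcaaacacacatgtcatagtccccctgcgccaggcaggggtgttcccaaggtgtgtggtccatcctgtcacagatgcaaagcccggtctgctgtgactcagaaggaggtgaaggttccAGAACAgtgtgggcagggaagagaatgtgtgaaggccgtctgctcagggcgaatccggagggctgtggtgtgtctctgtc
These motifs are short and common: among 32851 promoter windows of the same length, TGACG occurred in 20.81%, TGTTCT in 18.97%, GTAAACA in 3.65% and TGACGTCA in 1.79%.

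Foxo1, which encodes the insulin-restrained factor that acts on G6pc and Pck1, was not called on any tested probe set in any comparison. Its representative measured 7.67, 7.30, 7.75, 7.36 and 7.43 with Jnk1 shRNA, 7.22, 6.77, 7.51 and 7.07 with GFP shRNA, and 7.38, 8.56, 7.77, 7.57 and 7.41 with vehicle. On this probe set the groups overlapped, and vehicle array 2 was the highest of all 14. The Jnk1 group differed from GFP by 0.36 ± 0.21 SE (95% interval -0.09 to 0.80, limma adjusted p = 0.206) and from vehicle by -0.23 ± 0.20 (-0.65 to 0.18, limma adjusted p = 0.379). The other 2 tested Foxo1 probe sets gave 0.34 and 0.18 against GFP, and -0.22 and -0.34 against vehicle. On these 2, every GFP array lay below every vehicle array. All 3 gave their lowest mean in the GFP group, with GFP minus vehicle between -0.59 and -0.52 (limma adjusted p 0.0925 to 0.17).

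**Figure D2:**
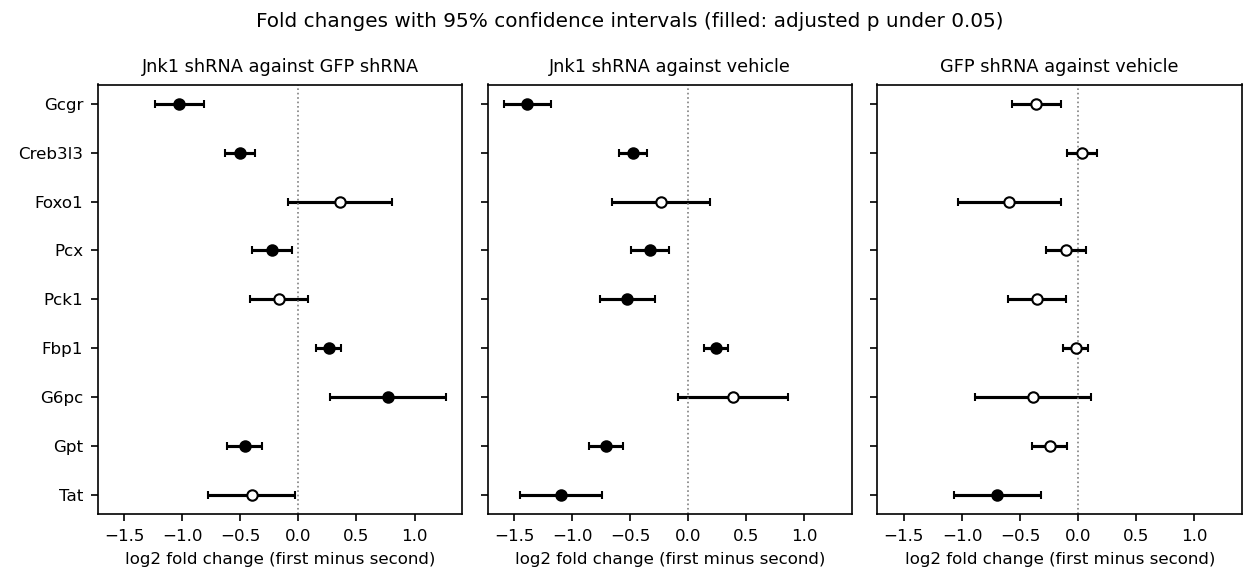
Log2 fold change of each gene, first group minus second, for Jnk1 shRNA against GFP shRNA, Jnk1 shRNA against vehicle and GFP shRNA against vehicle. Points are limma estimates over 14 arrays, bars are 95% confidence intervals, and filled points had an adjusted p under 0.05. Gcgr lies at -1.03 and -1.39 in the first pair of panels, and Tat is the only filled point in the third.

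The enzymes of the route itself moved in different directions. Pcx encodes pyruvate carboxylase, which makes oxaloacetate from pyruvate in mitochondria and is the first step from lactate or alanine. The gene probe set measured 10.001, 9.86, 9.67, 9.95 and 9.65 with Jnk1 shRNA, 10.03, 9.997, 10.13 and 10.06 with GFP shRNA, and 10.18, 10.14, 10.32, 10.03 and 10.12 with vehicle. The highest Jnk1 array lay just above the lowest GFP array and below every vehicle array. The difference was -0.23 ± 0.08 SE against GFP (limma adjusted p = 0.0387) and -0.33 ± 0.08 against vehicle (limma adjusted p = 0.00262). The call against GFP was lost in 11 of 25 settings, among them scaling to a common median (-0.035), while that against vehicle was lost in 1, the same scaling (-0.33, limma adjusted p = 0.0569). With Jnk1 array 2 alone neither held, at -0.19 and -0.29.

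Pyruvate carboxylase is also one of the array's control genes, so 4 further probe sets read it from the 5′ to the 3′ end; they were added to the tests after the data had been seen. The 3′ set, which measured 9.08 ± 0.15 with Jnk1 shRNA, 9.35 ± 0.02 with GFP shRNA and 9.45 ± 0.09 with vehicle (SD, n = 5, 4 and 5), fell (log2 differences -0.27 and -0.37, limma adjusted p = 0.0141 and 0.000911). The 3 sets nearer the 5′ end scattered more between arrays. Against GFP they gave -0.27, -0.05 and -0.17 in order from the 5′ end, none of them called, and against vehicle -0.33, -0.29 and -0.34, of which the last passed (limma adjusted p = 0.0408). All 5 Pcx probe sets thus had a lower mean in the Jnk1 group than in either other group. The 3′ to 5′ intensity ratio was 2.96 ± 0.59 with Jnk1 shRNA, 2.89 ± 0.39 with GFP shRNA and 3.15 ± 0.80 with vehicle, with exact permutation p = 0.841 against GFP and 0.69 against vehicle, while that of Gapdh had a higher mean with Jnk1 shRNA, as given above.

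**Figure D3:**
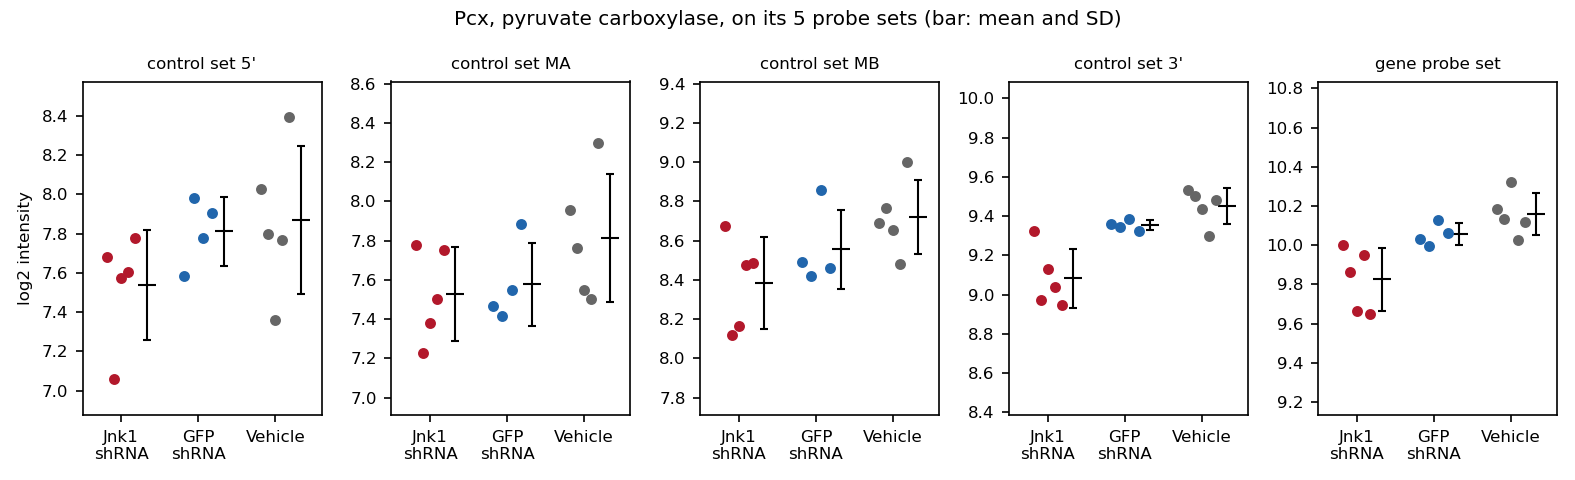
Log2 intensity of Pcx on its 4 control probe sets, from the 5′ to the 3′ end, and on its gene probe set, for Jnk1 shRNA, GFP shRNA and vehicle. Points are arrays, the bar is the mean with its SD, and all panels span the same range of the log2 scale. The Jnk1 mean is the lowest in each of the 5 panels. The Jnk1 arrays lie below every GFP array only on the 3′ control set, and below every vehicle array only on the gene probe set.

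Pck1 encodes the cytosolic phosphoenolpyruvate carboxykinase, the enzyme that commits oxaloacetate to glucose and a textbook target of glucagon and insulin. It measured 10.39, 11.02, 10.65, 10.52 and 10.79 with Jnk1 shRNA, 11.07, 10.94, 10.73 and 10.64 with GFP shRNA, and 11.07, 11.39, 11.32, 11.06 and 11.17 with vehicle. The 5 Jnk1 arrays lay below the 5 vehicle arrays, and the GFP arrays overlapped both. The Jnk1 level was 69.4% of vehicle (-0.53 ± 0.11 SE, limma adjusted p = 0.00139). Against GFP the difference was -0.17 ± 0.12 (95% interval -0.42 to 0.08, limma adjusted p = 0.293), and GFP against vehicle gave -0.36 ± 0.12 (limma adjusted p = 0.142). The call against vehicle moved with the spike-in level: it was -0.29 (limma adjusted p = 0.263) with that level as a covariate and -0.18 with Jnk1 array 2 as the only Jnk1 array, and the difference from GFP then turned to 0.070 and 0.18. The second Pck1 probe set averaged 2.90, 2.63 and 3.67 in the Jnk1, GFP and vehicle groups, below the limit for testing.

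The Pck1 promoter window (RefSeq, GRCm38.p6, chr2:173152823-173153122, plus strand) is shown because its cyclic AMP response element is the textbook case for this pathway. TGACG was found on the minus strand from -90 to -86, in capitals as read on the plus strand, and none of the other 3 motifs occurred.
Pck1: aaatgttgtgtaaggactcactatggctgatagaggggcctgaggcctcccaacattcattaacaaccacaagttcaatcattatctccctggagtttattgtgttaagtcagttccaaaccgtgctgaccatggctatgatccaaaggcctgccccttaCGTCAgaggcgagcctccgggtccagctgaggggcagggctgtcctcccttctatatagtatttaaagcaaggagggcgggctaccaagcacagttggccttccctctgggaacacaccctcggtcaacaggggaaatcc

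Fbp1, fructose-1,6-bisphosphatase, works midway along the route. It measured 12.27, 12.14, 12.35, 12.35 and 12.30 with Jnk1 shRNA, 12.07, 11.91, 12.08 and 12.01 with GFP shRNA, and 12.08, 12.01, 12.03, 12.01 and 12.07 with vehicle. All Jnk1 arrays lay above all others. The rise was 0.26 ± 0.05 SE over GFP (limma adjusted p = 0.000861) and 0.24 ± 0.05 over vehicle (limma adjusted p = 8e-04). Its direction depended on the scaling: on the arrays as deposited the differences were -0.052 and -0.12, and under scaling to a common median 0.11 and -0.086, none of them called. With the spike-in covariate they were 0.20 and 0.18 (limma adjusted p = 0.0944 and 0.111). Its normalized intensity, 3853 to 5207, lay in the upper part of the range. Quantile normalization gives every array the same top intensities, and the brightest deposited values were lower on Jnk1 arrays, as given above; the part this plays was not tested.

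G6pc encodes the catalytic subunit of glucose-6-phosphatase, the last step, which releases free glucose. It measured 10.72, 11.45, 11.33, 11.29 and 11.41 with Jnk1 shRNA, 11.08, 9.94, 10.82 and 10.05 with GFP shRNA, and 10.22, 10.81, 10.96, 11.07 and 11.22 with vehicle. Jnk1 array 1 stood apart from the other 4 Jnk1 arrays, which were above every GFP and vehicle array. The Jnk1 level was 170% of GFP (0.77 ± 0.24 SE, limma adjusted p = 0.0192), and the difference from vehicle was 0.38 ± 0.22 (95% interval -0.09 to 0.85, limma adjusted p = 0.194). The call against GFP rested on the 2 lowest GFP arrays: it was 0.59 without array 2 (limma adjusted p = 0.0722) and 0.62 without array 5 (limma adjusted p = 0.0709). Over 25 settings this difference ranged from 0.59 to 1.18 and was called in 23. The difference from vehicle ranged from 0.22 to 0.80 and was called in 0. After quantile normalization G6pc thus had its highest mean, and Pck1 its lowest, in the Jnk1 group, though both are glucagon targets in the textbook account. Neither Pck1 against GFP nor G6pc against vehicle was called. With the spike-in covariate Pck1 was not lowest in the Jnk1 group, at 0.070 against GFP, though that covariate is largely shared with the group.

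The G6pc window (RefSeq, GRCm38.p6, chr11:101367466-101367765, plus strand) is printed for comparison with that of Pck1, and holds none of the 4 motifs as spelled.
G6pc: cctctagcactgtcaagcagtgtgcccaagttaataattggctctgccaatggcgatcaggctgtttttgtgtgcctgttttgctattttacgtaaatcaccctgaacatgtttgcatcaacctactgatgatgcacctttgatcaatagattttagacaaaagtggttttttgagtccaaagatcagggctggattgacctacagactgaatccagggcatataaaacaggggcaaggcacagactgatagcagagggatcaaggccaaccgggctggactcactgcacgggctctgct
Of the 9 measured genes, 8 had a promoter in the table, in 10 windows, and Gpt had none. Of the 8, 2 held TGACG and 1 held TGTTCT.

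Gpt and Tat feed amino acid carbon into the route. Gpt, alanine aminotransferase, turns alanine into pyruvate, and measured 9.74, 9.65, 9.83, 9.64 and 9.64 with Jnk1 shRNA, 10.30, 10.10, 10.10 and 10.15 with GFP shRNA, and 10.34, 10.24, 10.44, 10.56 and 10.45 with vehicle. The Jnk1 arrays lay below all others. The level was 72.6% of GFP (-0.46 ± 0.07 SE, limma adjusted p = 0.000121) and 61.2% of vehicle (-0.71 ± 0.07, limma adjusted p = 6.22e-07). With arrays scaled to the same median the difference from GFP was -0.26 and not called (limma adjusted p = 0.143), and with Jnk1 array 2 alone both calls held (-0.51 and -0.75). GFP minus vehicle was -0.25 ± 0.07 (limma adjusted p = 0.0894). The suffix of this probe set marks probes shared by several transcripts, so signal from a related transcript cannot be told apart.

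Tat, tyrosine aminotransferase, starts tyrosine breakdown and is induced by glucocorticoids and cyclic AMP. It measured 10.29, 10.45, 10.40, 10.19 and 10.49 with Jnk1 shRNA, 11.30, 10.77, 10.63 and 10.37 with GFP shRNA, and 11.0004, 11.96, 11.66, 11.40 and 11.29 with vehicle. The mean was lowest with Jnk1 shRNA, intermediate with GFP shRNA and highest with vehicle. The GFP arrays overlapped both other groups, while Jnk1 and vehicle did not overlap. Jnk1 was 46.8% of vehicle (-1.10 ± 0.17 SE, limma adjusted p = 7.2e-05) and GFP was 61.8% of vehicle (-0.69 ± 0.18, limma adjusted p = 0.0472). The GFP call was lost in 17 of 25 settings, and with Jnk1 array 2 alone the difference of the Jnk1 group from vehicle was -1.01 (limma adjusted p = 0.0622). Jnk1 differed from GFP by -0.40 ± 0.18 (95% interval -0.77 to -0.03, limma adjusted p = 0.0922), which passed only without GFP array 5 (-0.53, limma adjusted p = 0.0353).

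**Figure D4:**
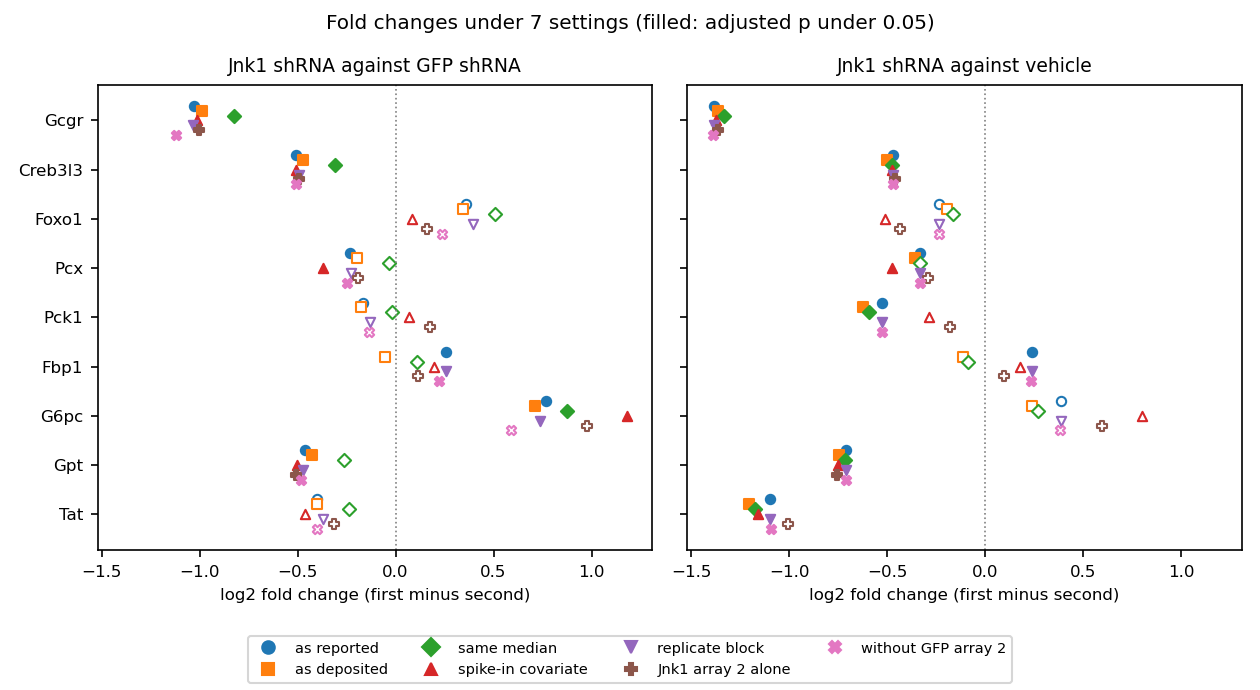
Log2 fold change of each gene under 7 settings, for Jnk1 shRNA against GFP shRNA (left) and against vehicle (right). Each symbol is a setting and filled symbols had a limma adjusted p under 0.05. Gcgr and Creb3l3 are filled in all 7 settings of both panels, Fbp1 spans 0, and Pck1 against GFP lies between -0.17 and 0.18.

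Across the 14 arrays Pck1 was most like Tat of 8026 other genes (Pearson r = 0.908, and 0.737 for deviations from group means), followed by Dusp16, a phosphatase that acts on JNK and p38 (0.875 and 0.754), and Rap1a, a small GTPase (0.869 and 0.661). G6pc was most like Avl9 (0.897 and 0.825), 4930430F08Rik (0.893 and 0.851) and Mrpl9, a mitochondrial ribosomal protein (0.887 and 0.813). Pck1 and G6pc were not alike, with r = 0.03 over the arrays and 0.45 for deviations. Gcgr and Gpt had r = 0.95 over arrays but 0.26 for deviations. These are descriptions over 14 arrays that share 3 groups.

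The lists around these genes were chosen with earlier results of these data known. Each is described by how many tested genes were higher and lower, beside the shares of all genes given above. Some genes stand in several lists, such as Trib1 and Ppargc1a among both the regulators and the FOXO1 genes. The list counts are therefore not separate observations. Those shares belong to the main fit. For the other settings no such share is given, so their counts have no background beside them. The setting with Jnk1 array 2 alone holds 1 Jnk1 array, so a call can be lost there through the smaller number of arrays. In the rest of the gluconeogenic route (18 tested genes), 6 rose and 5 fell against GFP, and 6 rose and 4 fell against vehicle. Slc16a1, the lactate transporter, rose by 1.30 ± 0.10 and 1.53 ± 0.09 on the log2 scale (limma adjusted p = 9.6e-08 and 4.25e-09), and Pgam1, phosphoglycerate mutase, rose by 0.87 and 0.98. Got2, the mitochondrial aspartate aminotransferase, rose by 0.43 against GFP, and Mdh2, the mitochondrial malate dehydrogenase, by 0.73 against vehicle. The mitochondrial carriers Slc25a11 (2-oxoglutarate) and Slc25a10 (dicarboxylate) fell, the first by 0.79 against GFP and the second by 0.97 against vehicle. Over the settings that kept all Jnk1 arrays, the number lower was 3 to 5 against GFP and 3 to 5 against vehicle.

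Among 18 tested genes of glucagon and cyclic AMP signalling, 3 rose and 5 fell against GFP, and 2 rose and 5 fell against vehicle. Adcy9, an adenylyl cyclase, fell (log2 differences -1.25 ± 0.14 and -1.76 ± 0.13, limma adjusted p = 4.81e-06 and 4.06e-08). Prkaca, the catalytic subunit of protein kinase A, rose by 0.94 and 0.90. Itpr2, a receptor that releases calcium, rose by 0.56 and 0.74, Crem, a CREB relative, fell by 0.70 against GFP, and the phosphodiesterase Pde8a fell by 0.81 against vehicle. Neither with the spike-in covariate nor with Jnk1 array 2 alone, a fit with 1 Jnk1 array, were Prkaca, Crem, Pde8a and, against GFP, Itpr2 called. Prkaca and Pde8a were smaller in these settings: Prkaca was 0.49 and 0.40 against GFP, and Pde8a -0.38 and -0.35 against vehicle. Against GFP, Crem was -0.55 and -0.61 and Itpr2 0.52 and 0.56. Itpr2 against vehicle lost its call with Jnk1 array 2 alone (0.74). The list's median against GFP, -0.10, turned to 0.10 with arrays scaled to the same median, where the median of all genes was 0.09.

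Of 28 regulators of gluconeogenic genes, 4 rose and 4 fell against GFP, and 3 rose and 11 fell against vehicle. Hnf4a, a nuclear receptor that maintains hepatocyte genes, fell (-0.52 ± 0.07 and -0.58 ± 0.07, limma adjusted p = 2.94e-05 and 3.62e-06). Trib1, a pseudokinase, fell (-1.71 and -1.91), and Nr0b2, the repressor SHP, rose by 2.20 ± 0.48 and 2.77 ± 0.45. Cry1, a clock repressor, rose by 1.19 against GFP. Nr4a1, an orphan receptor induced by cyclic AMP, was lower than in vehicle in both virus groups, by -1.29 with Jnk1 shRNA and -1.13 with GFP shRNA, and Ppargc1a, the coactivator PGC-1α, by -0.60 with GFP shRNA. That call of Ppargc1a was lost on the arrays as deposited (-0.51), without GFP array 2 (-0.63) and with the replicate block (-0.57, limma adjusted p = 0.105). With Jnk1 array 2 alone Nr0b2 (2.42 and 2.99) and Cry1 (1.17 against GFP) were not called, at differences close to those over all arrays. Nr0b2 against GFP was not called with the spike-in covariate either (1.89), nor was Hnf4a against GFP with arrays scaled to the same median (-0.36). Over the settings that kept all Jnk1 arrays, the number of regulators lower than vehicle ranged from 4 with the spike-in covariate to 12 without GFP array 2.

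Of 18 tested FOXO1 and insulin-responsive genes, 2 rose and 8 fell in each comparison of the Jnk1 group. The 2 that rose against GFP, Pdk4 (2.55 ± 0.28) and Mttp (0.84 ± 0.08), were those that rose against vehicle (2.21 and 0.78), and they encode a kinase that holds back pyruvate dehydrogenase and the transfer protein of lipoprotein assembly. Pdk2, a related kinase, fell (-0.997 and -1.40), and Irs1, an insulin receptor substrate, fell by 1.09 against vehicle, a call lost with Jnk1 array 2 alone, where the difference was -1.002. Over the settings that kept all Jnk1 arrays, the number lower ranged from 3 to 10 against GFP and from 4 to 10 against vehicle. Both low ends came with the spike-in covariate.

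Of 14 targets and partners of CREB3L3, 1 rose and 6 fell against GFP, and 3 rose and 5 fell against vehicle. Apoc2, a cofactor of lipoprotein lipase, rose by 0.55 and 0.57, whereas Cpt1a, the entry step of mitochondrial fatty acid oxidation, fell (-0.39 and -0.41). Apoa5, an apolipoprotein, and Mbtps1, a protease that cleaves such membrane-bound factors, fell against GFP (-0.39 and -0.32). Cidec, a lipid droplet protein, and Apoa4 were higher than vehicle in both virus groups: Cidec by 1.56 with Jnk1 shRNA and 1.67 with GFP shRNA, and Apoa4 by 0.63 and 0.59. The call of Apoa4 with GFP shRNA was lost without GFP array 2 (0.60), with the replicate block (0.60, limma adjusted p = 0.0955) and under scaling to a common median (0.42, limma adjusted p = 0.169). With Jnk1 array 2 alone Apoc2 was 0.31 and 0.32 and Apoa4 0.75 against vehicle, none of them called. Under scaling to a common median the calls against GFP were lost for Apoa5 (-0.39), Mbtps1 (-0.11) and Cpt1a (-0.21). Apoa5 was also not called with the spike-in covariate (-0.42) or with Jnk1 array 2 alone (-0.43), nor Mbtps1 with Jnk1 array 2 alone (-0.37). The count lower against GFP was 2 with arrays scaled to the same median, and 4 with the spike-in covariate or without GFP array 2.

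In the list of amino acid breakdown, which also holds amino acid transporters and urea cycle genes, most called genes fell. Of 37 tested genes, 21 fell and 5 rose against GFP (list median -0.31), and 27 fell and 5 rose against vehicle (-0.44), while GFP against vehicle gave 1 lower and 0 higher (-0.17). Prodh, proline dehydrogenase, fell (-2.54 ± 0.17 and -2.83 ± 0.16, limma adjusted p = 3.53e-08 and 2.35e-09), to 0.172 times the GFP level and 0.141 times the vehicle level. Hal, histidine ammonia-lyase, fell (-1.32 and -1.50), as did Slc38a3, a glutamine transporter (-1.04 and -1.30), and Aass, of lysine breakdown, against vehicle (-1.18). Cth, which makes cysteine from cystathionine, rose by 0.71 against GFP. Cbs, the step before it, was lower in GFP shRNA liver than in vehicle (-0.44). It was also called lower in Jnk1 shRNA liver than in GFP shRNA liver (-0.51). That call was lost with arrays scaled to the same median (-0.28). Against GFP the count lower was 10 with arrays scaled to the same median and 16 with the spike-in covariate. Against vehicle it was 23 and 21. The list median against GFP was -0.17 with arrays scaled to the same median, where that of all genes was 0.09. With the spike-in covariate it was -0.32 (all genes -0.02), and with Jnk1 array 2 alone -0.34 (all genes -0.02).

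**Figure D5:**
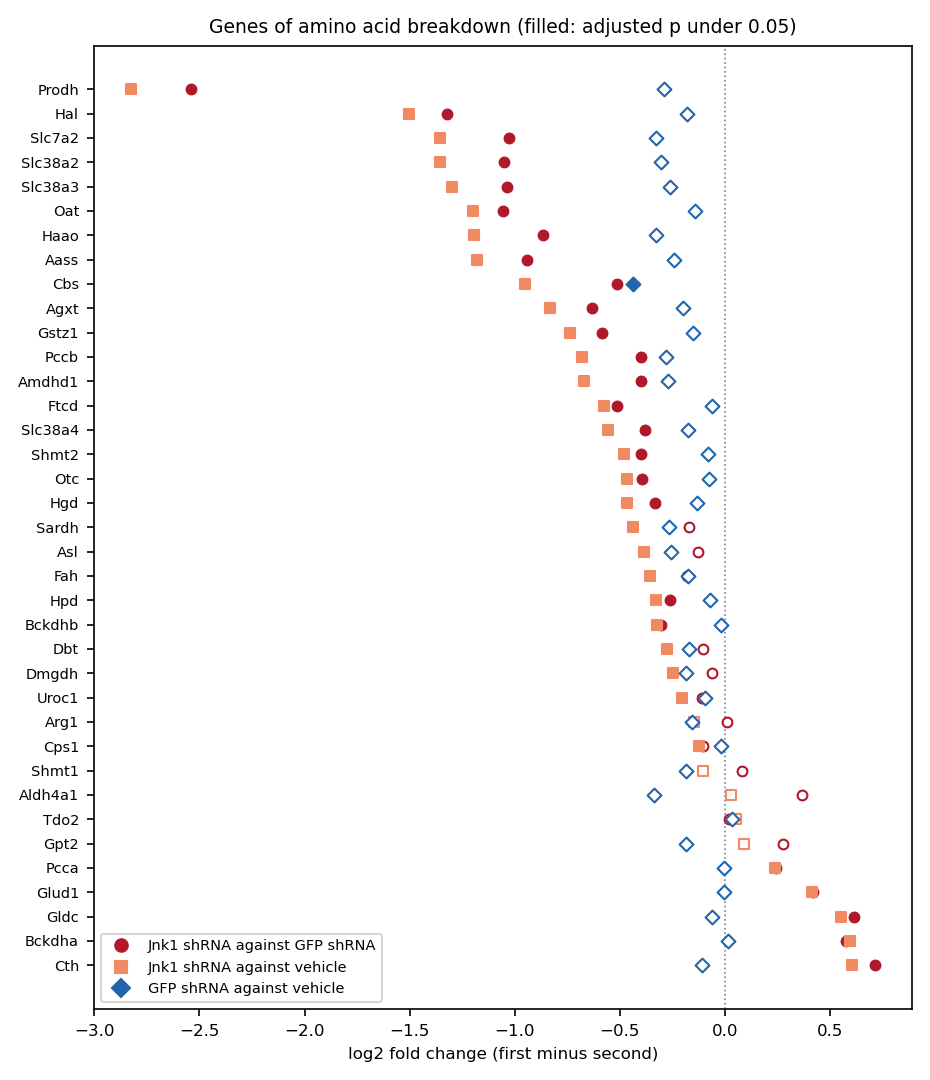
Log2 fold change, first group minus second, of the 37 tested genes of the amino acid list in the 3 comparisons, ordered by Jnk1 shRNA against vehicle. The list holds transporters and urea cycle genes beside those of amino acid breakdown. Filled symbols had a limma adjusted p under 0.05. Most Jnk1 symbols lie left of 0, with Prodh at -2.54 and -2.83, and among the GFP against vehicle symbols only Cbs, at -0.44, is filled.

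Gluconeogenesis and amino acid use are zoned in the liver lobule, chiefly in periportal hepatocytes. Of 10 periportal genes, 1 rose and 4 fell against GFP and 2 rose and 5 fell against vehicle; of 13 pericentral genes, 1 rose and 8 fell, and 2 rose and 9 fell. Among periportal genes Cyp2f2 (-1.77 and -1.82) and Pigr (-1.09 and -1.25) fell, and Hsd17b6 rose by 1.78 and 1.79. Hal, Asl, Cps1 and Arg1 of the periportal list also stand in the amino acid list. Among pericentral genes Oat, an ornithine aminotransferase that also stands in the amino acid list, fell (-1.05 and -1.20), as did Gulo (-1.01 and -1.15), Rgn (-0.53 and -0.58), Slc1a2 against GFP (-1.20) and Cyp1a2 against vehicle (-1.45). Over 6 settings the number lower than vehicle was 3 to 7 for periportal and 8 to 9 for pericentral genes. Genes of both zones were thus among those that fell.

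Markers of other cells moved as well, and their part in the gene lists was not tested. The summed intensity of 11 macrophage and Kupffer markers was 3161 to 3945 on Jnk1 arrays, 5407 to 6204 on GFP arrays and 3212 to 5205 on vehicle arrays, with 7 of 11 lower against GFP and 4 against vehicle. In GFP shRNA liver against vehicle 2 of the 11 were higher and 2 lower. The Kupffer cell markers Vsig4 and Clec4f were lower than vehicle in both virus groups: Vsig4 at 0.122 times vehicle with Jnk1 shRNA and 0.240 times with GFP shRNA, and Clec4f at 0.189 and 0.253 times. Mpeg1 and Cd5l were higher with GFP shRNA than with vehicle (2.95 and 1.81 times), and in Jnk1 shRNA liver they were 0.407 and 0.565 times the GFP level. Endothelial markers (8) summed to 780.2 to 913.8, 983 to 1248 and 1148 to 1245, with 3 lower against GFP and 5 against vehicle. Stellate markers (6) summed to 1415 to 1583, 2053 to 2359 and 1898 to 2101, with 4 lower against GFP and 2 against vehicle. Of both types 0 were higher in these comparisons. In GFP shRNA liver against vehicle 1 endothelial marker was lower and 1 stellate marker higher. The 8 hepatocyte markers summed to 36760 to 39170, 37770 to 40020 and 37370 to 40270, with 2 of 8 lower in each comparison of the Jnk1 group, and 6 and 7 of 8 on the arrays as deposited. The 1 tested T and NK cell marker, Nkg7, was 4.50 times vehicle with Jnk1 shRNA and 3.81 times with GFP shRNA. The 1 tested erythroid marker, Alas2, was 0.247 times GFP and 0.244 times vehicle in Jnk1 shRNA liver. The 1 tested B cell and 3 tested neutrophil markers were not called in any comparison. No bile duct marker passed the filter, and of 6 kidney and intestine markers only Fabp2, which liver cells may also express, was tested; in Jnk1 shRNA liver it was 0.692 times GFP and 0.707 times vehicle.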

How the data were processed

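Liver RNA was measured on a 1-colour Affymetrix mouse array, 14 arrays, 1 per sample. The deposited values are linear probe set intensities; the authors' software, background correction and genome build were not given in the sources used here, and the trimmed mean (2% off at either end) of each array, 150.05 to 150.06, shows that the deposited intensity values share a common scale. Groups and replicate numbers come from the labels. Array medians spanned 0.48 on the log2 scale, so arrays were quantile normalized, a floor was set at the 5th percentile (2.01), and log2 was taken. The 64 control probe sets and the dimmest 40% by mean of the remaining 22626 were left out, leaving 13575 probe sets and 8027 genes (lowest mean intensity 28.4). limma 3.58.1 in R 4.3.3 fitted 3 group means to all arrays with trended variances; p-values were Benjamini-Hochberg adjusted over the 13575 probe sets. Without detection calls no bound on background could be set, and the number of arrays limits the precision.

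Symbols came from the platform annotation: 20393 probe sets have 1 symbol, 691 several (not named) and 1606 none. Promoter windows are RefSeq's. The genes and the 8 lists were chosen with earlier results of these data known. Every probe set of the 10 genes is named, from each list up to 4 called genes of smallest adjusted p per comparison, and the 3 genes most like Pck1 and G6pc. Alternatives were other scalings, filters, a pseudocount of 16, variance models, array weights, the spike-in covariate, the replicate number as block and leaving out each array. The fit was tested on simulated data.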

Additional observations from a re-analysis of the deposited data

Results flagged for a closer look

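In 51 groups of 4 or 5 arrays (17 probe sets in 3 groups), 4 held 1 array far from the others of its group, where chance gives about 1 group in 20. For G6pc, Jnk1 shRNA array 1 was low, at 10.72 on the log2 scale, with the nearest other array of its group at 11.29; its spike-in level was also the lowest. For Gcgr, GFP shRNA array 2 was low, at 8.38, with the nearest other at 8.72; it is the array with the highest median intensity. For the 5′ control probe set of Pcx, Jnk1 shRNA array 2 was low, at 7.06, with the nearest other at 7.57. For the MB control probe set of Pcx, GFP shRNA array 3 was high, at 8.86, with the nearest other at 8.49. Without GFP array 2 the difference of Gcgr between Jnk1 and GFP shRNA was -1.12, against -1.03 with it.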

How the results depend on the processing

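Over the alternatives, 627 of 675 values of single genes kept their direction and their side of the threshold, 36 lost a call, 4 gained one and 8 changed sign. The sign changes were Fbp1 against GFP on the arrays as deposited (-0.052), Fbp1 against vehicle as deposited (-0.12) and under scaling to a common median (-0.086), Creb3l3 for GFP against vehicle as deposited (-0.030) and with a common median (-0.16), Fbp1 for GFP against vehicle with array weights (0.000156) and over single arrays left out (-0.042 to 0.016), and Pck1 against GFP with the spike-in covariate (0.070). With Jnk1 array 2 as the only Jnk1 array, an alternative chosen after seeing the data in which that array is assumed to vary like the others, Pck1 against GFP was 0.18, 3 of the 9 genes were called against GFP and 3 against vehicle, and 1342 and 1919 probe sets were called; fewer samples enter this fit. In the main analysis 4497, 5099 and 350 probe sets were called for Jnk1 against GFP, Jnk1 against vehicle and GFP against vehicle. The first 2 counts were 2790 and 3128 with 1 probe set per gene, where fewer are tested, and 2172 and 2858 with the spike-in covariate; the third was 209 when only those 2 groups entered the fit. With arrays scaled to the same median 3 genes were called against GFP in place of 6. There 72.3% of called probe sets were higher in place of 52.3%, and the cause was not tested. For this and the other settings of this paragraph the share of all genes called is not given. The counts of the 9 genes can therefore not be set against it. For GFP against vehicle, 2 genes were called as deposited, and 0 without the filter, without the intensity trend, with 2 groups in the fit, with the spike-in covariate and with the replicate block. Leaving out each array gave 0 to 2 genes and 198 to 383 probe sets for GFP against vehicle (198 without GFP array 5), 5 to 6 genes and 3841 to 4591 probe sets against GFP, and 7 genes and 4575 to 5502 probe sets for Jnk1 against vehicle. Same-numbered samples showed little correlation (2 of 13 pairs with a correlation over 0.1, range -0.235 to 0.121, 5 best with their own number). This cannot exclude a pairing by number, and the main fit used none. With the replicate block 4101, 4825 and 247 probe sets were called.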
